A study of Homo sapiens with 4 samples.

Results

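The genes of the epidermal growth factor (EGF) signalling family were followed in Ishikawa cells after knockdown of *CDYL*. They were 10 genes taken by name from the 58522 genes listed: the ERBB receptors *EGFR*, *ERBB2*, *ERBB3* and *ERBB4*, the ligands *TGFA*, *HBEGF*, *AREG*, *BTC* and *EREG*, and the feedback inhibitor *ERRFI1*. Each was found by its Ensembl identifier, and 9 of the 10 passed the filter on low counts and were tested, the exception being *EREG*. The samples were 2 *CDYL*-sh libraries, from cells carrying a short hairpin RNA against *CDYL*, and 2 control libraries, from cells carrying a negative control hairpin. Ishikawa is an established human cell line from an endometrial adenocarcinoma, used as a model of endometrial epithelium. The hairpins were expressed from a U6 plasmid and transduced cells were selected with puromycin, in medium with fetal bovine serum, per the study's methods. The labels number the silenced libraries sh1 and sh2. Whether these are replicates of 1 hairpin or different hairpins is not stated, nor is it stated that libraries of a group were grown as separate cultures. The p-values therefore measure only the spread between these libraries, which may be technical.

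ERBB receptors are membrane tyrosine kinases that pair when a ligand binds and then signal through RAS and ERK and through PI3 kinase and AKT. ERBB2 has no known ligand of its own and serves as a partner for the others, and ERBB3 has a weak kinase and signals as the partner of an active receptor. The EGF-family ligands are made as membrane-anchored precursors and are released by ADAM proteases. In the mouse uterus, HB-EGF is known for its part in the attachment of the blastocyst to the epithelium. ERRFI1, also called MIG6, is induced by receptor signalling, binds the EGFR kinase domain and inhibits it, and its loss in the mouse uterus leads to endometrial hyperplasia.

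*HBEGF* and *ERRFI1* were higher in *CDYL*-sh cells, and none of the other 7 tested genes of the family passed the test in either direction. *HBEGF* averaged 9.66 ± 1.08 CPM in *CDYL*-sh and 6.13 ± 0.466 CPM in control (SD, n = 2 each), where CPM stands for counts per 1000000 counts of the TMM-scaled library. *ERRFI1* averaged 52.7 ± 3.89 CPM in *CDYL*-sh and 41.5 ± 5.34 CPM in control (SD, n = 2 each). The 2 genes called are 22.2% of the 9 tested, whereas 25.7% of all 16158 genes tested passed in either direction, 13.6% as higher and 12.1% as lower. The test was the quasi-likelihood test of edgeR, passed where the Benjamini-Hochberg adjusted p was under 0.05. The share of the family was therefore close to that of all genes, and the number called ranged from 0 to 3 over 16 alternatives. The median log2 fold change (*CDYL*-sh over control) was 0.16 over the 9 genes and 0.01 over all genes tested. Of the 9 genes, 4 had both *CDYL*-sh libraries above both control libraries, 3 had both below, and 2 overlapped. The 7 without overlap are 77.8% of the genes tested, against 64.3% of all genes tested.

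The promoters of the 2 genes that were higher are shown here, as RefSeq's windows on GRCh38.p14 from 250 bases before to 50 bases after the annotated start, both on the minus strand and read 5′ to 3′. Capitals mark the GC box, GGGCGG on either strand. The *HBEGF* window is chr5:140346554-140346853 and the *ERRFI1* window is chr1:8026260-8026559.
HBEGF: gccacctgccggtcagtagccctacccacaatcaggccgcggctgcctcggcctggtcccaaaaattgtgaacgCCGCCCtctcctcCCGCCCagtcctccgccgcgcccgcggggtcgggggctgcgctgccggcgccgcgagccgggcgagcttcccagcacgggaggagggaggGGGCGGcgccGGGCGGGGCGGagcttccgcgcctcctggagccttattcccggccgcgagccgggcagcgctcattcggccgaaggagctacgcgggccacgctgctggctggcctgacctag
ERRFI1: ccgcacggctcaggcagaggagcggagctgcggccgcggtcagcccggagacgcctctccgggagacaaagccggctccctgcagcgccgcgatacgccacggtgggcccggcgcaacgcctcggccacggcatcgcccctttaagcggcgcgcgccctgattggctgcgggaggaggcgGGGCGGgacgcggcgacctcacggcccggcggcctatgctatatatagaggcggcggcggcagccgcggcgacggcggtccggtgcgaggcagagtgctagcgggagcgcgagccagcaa

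Both windows are rich in G and C, with a GC content of 75.0% for *HBEGF* and 74.7% for *ERRFI1*. The *HBEGF* window holds 5 GC boxes, of which the 2 nearest the start share bases, and the *ERRFI1* window holds 1. GC boxes are common, and 45% of all 35116 windows hold at least 1. Neither window holds the AP-1 site as TGANTCA (7.71% of all windows) or the cyclic AMP response element as TGACGTCA (1.85%). Neither holds the TATA box as TATAAA (11.5%), and each was searched on both strands. Other spellings of these sites were not searched, and the *ERRFI1* window does hold the TATA-like letters tatatata before its start. A window was matched for 9 of the 10 genes, 11 windows in all. Among them, the response element occurred only in the *AREG* window, and the AP-1 site occurred in the *ERBB2* window and in 1 of the 2 *EGFR* windows. These matches describe the letters of the windows and were not tested for binding.

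Total counts ranged from 22341852 to 27688447 per library, with the lowest in *CDYL*-sh replicate 2. *CDYL*, the targeted gene, measured 11.4 and 9.70 CPM in *CDYL*-sh and 50.4 and 53.0 CPM in control, so that its mRNA was low in both libraries labelled as silenced. Epithelial markers were abundant, with a summed level of 3440 to 3655 CPM in *CDYL*-sh and 3652 to 4003 CPM in control over 8 genes. Within this sum, *KRT19* and *KRT7* passed the test as higher, *KRT18* passed as lower and 5 genes did not pass. The share past the test was 37.5%, against 25.7% of all genes tested. Markers of other cell types were low, and their sums differed between the groups. Stromal markers, of which *DCN* was at 0 in every library, summed to 18.1 to 19.8 CPM in *CDYL*-sh and 26.7 to 30.2 CPM in control (6 of 7 with a count). Of these, *COL1A1* had 8.82 and 7.75 CPM in *CDYL*-sh and 13.0 and 16.4 CPM in control. It passed the test as lower, and the other tested stromal markers did not pass. Endothelial markers summed to 8.28 to 9.06 CPM in *CDYL*-sh and 4.24 to 4.79 CPM in control (5 of 5), and leukocyte markers summed to 18.2 to 20.9 CPM in *CDYL*-sh and 7.86 to 11.7 CPM in control (4 of 6, with *CD3E* and *MS4A1* at 0). *CD68* carried the leukocyte sums in both groups, whereas *PECAM1* made up most of the endothelial sums in *CDYL*-sh only. *PECAM1* had 5.21 and 6.34 CPM in *CDYL*-sh and 1.62 and 1.96 CPM in control, and passed the test as higher. *VWF* was also higher, at 2.43 and 2.04 CPM in *CDYL*-sh and 1.44 and 1.43 CPM in control, but did not pass the test. By contrast, *CDH5* had 7 counts in each *CDYL*-sh library and 17 and 23 counts in control. *CLDN5* had 10 and 8 counts in *CDYL*-sh and 13 and 14 counts in control, and *KDR* had at most 3 counts in a library. *CD68* had 20.6 and 18.1 CPM in *CDYL*-sh and 7.75 and 11.6 CPM in control, and passed the test as higher. The part of these markers in the values below was not tested. In bulk RNA, a change in the number of cells that express a gene and a change in RNA per cell cannot be told apart.

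**Figure D1:**
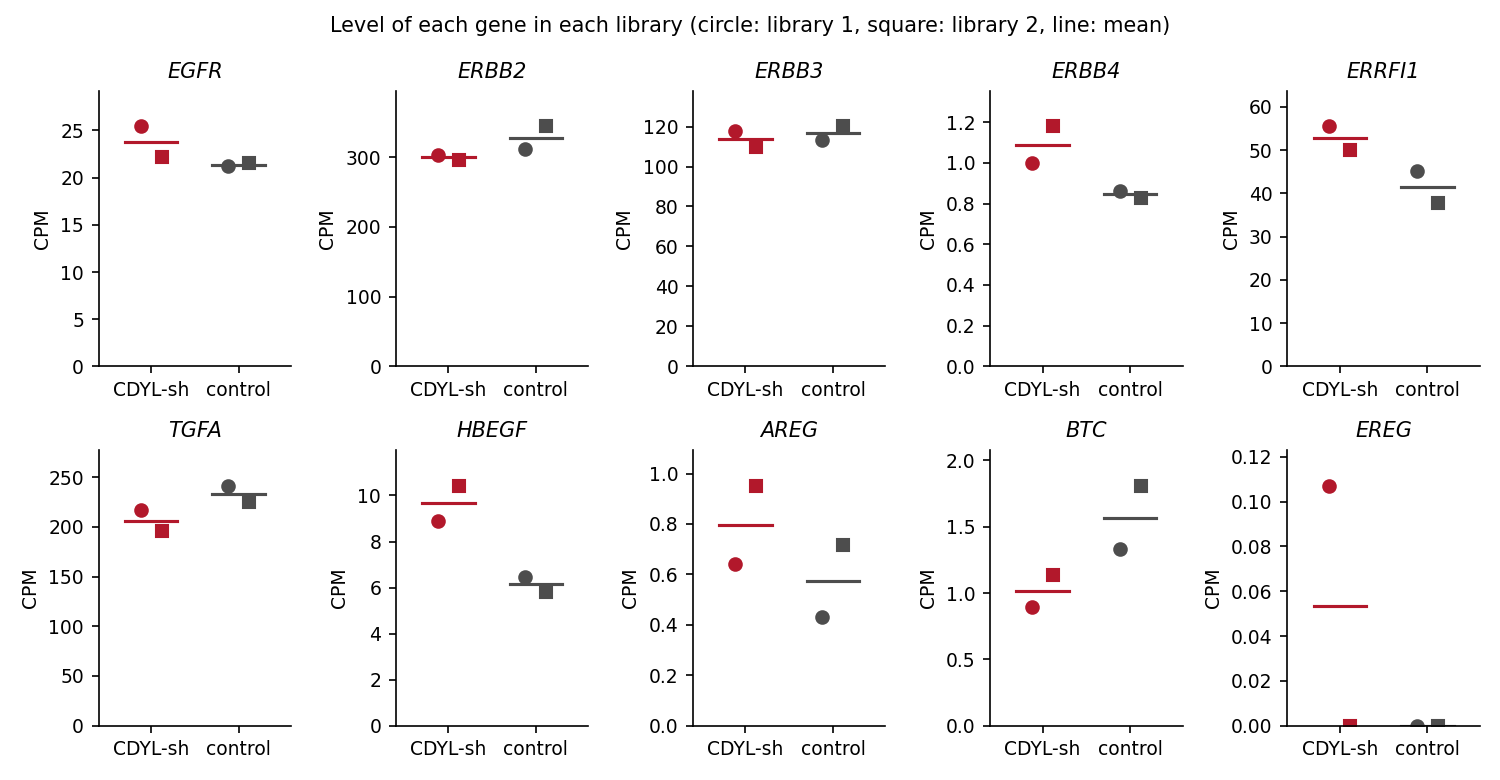
Level of each of the 10 genes in CPM (linear axes from 0) in the 2 *CDYL*-sh libraries (red, left) and the 2 control libraries (grey, right), with a circle for library 1, a square for library 2 and a line at the mean. *HBEGF* and *ERRFI1* lie higher in both *CDYL*-sh libraries, *TGFA* and *ERBB2* lie lower in both by less, and *EREG* has 3 counts in 1 library only.

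Among the receptors, *ERBB2* was the most abundant per length in every library and none of the 4 passed the test. *ERBB2* (ENSG00000141736, at chr17:39687914-39730426 of GRCh38, plus strand) had 303 and 296 CPM in *CDYL*-sh and 312 and 344 CPM in control. Both *CDYL*-sh libraries were below both control libraries, the nearest by a small margin, and the log2 fold change was -0.13 (95% interval -0.35 to 0.09, adjusted p = 0.389 from edgeR). *ERBB2* shares 571 exonic bases with its neighbour *MIEN1*, on the opposite strand. In control replicate 1 the counts of *ERBB2* (8688.99) and *MIEN1* (3376.01) are not whole but sum to 12065, so that a read was divided between them, and in the other libraries both were whole.

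*ERBB3* (ENSG00000065361), which binds neuregulins, is at chr12:56076799-56103505 (plus strand). It had 118 and 110 CPM in *CDYL*-sh and 113 and 120 CPM in control. The groups overlapped, with a log2 fold change of -0.03 (95% interval -0.25 to 0.18, adjusted p = 0.837 from edgeR). The interval leaves room for a fold between 0.840 and 1.14, and the sign was positive after correction for base composition and length, on the FPKM scale and without control replicate 2 or *CDYL*-sh replicate 2.

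*EGFR* (ENSG00000146648), the receptor of EGF and TGF-alpha, is at chr7:55019017-55211628 (plus strand). It had 25.4 and 22.2 CPM in *CDYL*-sh and 21.3 and 21.5 CPM in control. Both *CDYL*-sh libraries were above the control libraries, *CDYL*-sh replicate 2 only slightly. The log2 fold change was 0.16 (95% interval -0.12 to 0.43, adjusted p = 0.412 from edgeR). On the log2(FPKM + 1) scale the difference was -0.06, since control replicate 1 was listed at 3.30 FPKM against 2.24 in control replicate 2, with nearly equal counts of 592 and 571.

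*ERBB4* (ENSG00000178568), a receptor of neuregulins and of HB-EGF, betacellulin and epiregulin, is at chr2:211375717-212538841 (minus strand). It was close to the detection limit, with 28 and 26 counts in *CDYL*-sh and 24 and 22 counts in control. The log2 fold change was 0.36 with a 95% interval of -0.57 to 1.28 (adjusted p = 0.591 from edgeR). At these counts a 2.43-fold rise and a fold of 0.676 both lie within the interval, so that a change of moderate size was not detectable.

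FPKM, which the authors normalized for gene length and depth, allow the levels of different genes to be set side by side. *ERBB2* was listed at 83.4 and 84.0 FPKM in *CDYL*-sh and 84.4 and 86.2 FPKM in control, above 93.3% of the genes with a mean FPKM over 0. *ERBB3* followed at 29.4 and 27.6 FPKM in *CDYL*-sh and 26.2 and 27.9 FPKM in control. *EGFR* stood at 2.83 and 2.35 FPKM in *CDYL*-sh and 3.30 and 2.24 FPKM in control, and *ERBB4* at or below 0.58 FPKM in each library. *ERBB2* therefore held 71.7% and 73.6% of the summed receptor FPKM in *CDYL*-sh and 73.9% in each control library. *ERBB3* held 25.3% and 24.2% in *CDYL*-sh and 22.9% and 23.9% in control, and *EGFR* from 1.92% to 2.89% over the 4 libraries. The summed receptor level was 116 and 114 FPKM in *CDYL*-sh and 114 and 117 FPKM in control, and these ranges overlap.

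**Figure D2:**
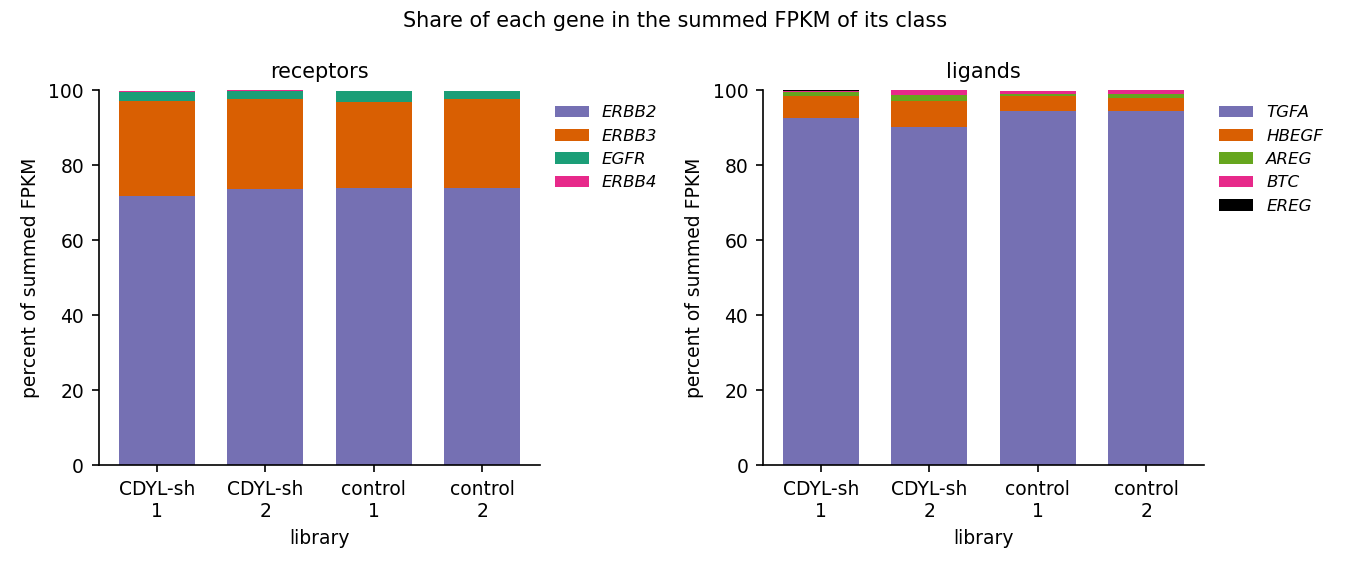
Share of each gene (percent, stacked to 100) in the summed FPKM of the 4 receptors (left) and of the 5 ligands (right), for the 2 *CDYL*-sh and the 2 control libraries. *ERBB2* holds 71.7% to 73.9% of the receptor sum, and *TGFA* 90.2% to 94.5% of the ligand sum, with a larger share of *HBEGF* in *CDYL*-sh.

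For *ERBB4*, *BTC* and *EGFR*, FPKM depended on the length that the authors' estimation gave to the transcripts of the gene. The length implied by count, FPKM and total count was 1759 and 8312 bases for *ERBB4* in the *CDYL*-sh libraries and 2889 and 2718 bases in the control libraries. For *BTC* it was 2530 and 1301 bases in *CDYL*-sh and 1610 and 2506 bases in control, and for *EGFR* 6479 bases in control replicate 1 against 9165 to 9448 in the other libraries. For *HBEGF*, *TGFA*, *AREG* and *ERRFI1* the longest was at most 1.06 times the shortest. *BTC*, with 25 counts in each *CDYL*-sh library, was thus listed at 0.36 and 0.86 FPKM there. The counts were used for the tests.

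Of the 5 ligands among the 10 genes, *TGFA* was the dominant transcript and *HBEGF* the only one whose level differed past the test. *TGFA* (ENSG00000163235), which encodes TGF-alpha, is at chr2:70447284-70554193 (minus strand). It had 217 and 196 CPM in *CDYL*-sh and 242 and 225 CPM in control, with both *CDYL*-sh libraries below both control libraries. The log2 fold change was -0.18 (95% interval -0.40 to 0.04, adjusted p = 0.228 from edgeR), and the fold lay between 0.759 and 1.03. Corrected for base composition and length, *TGFA* passed the test as lower, at -0.20 (adjusted p = 0.0460 from edgeR, within 0.0353 to 0.714 over the alternatives).

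*HBEGF* (ENSG00000113070), which encodes heparin-binding EGF-like growth factor, a ligand of EGFR and ERBB4, is at chr5:140332843-140346603 (minus strand). It had 249 and 230 counts in *CDYL*-sh and 180 and 154 counts in control, or 8.89 and 10.4 CPM in *CDYL*-sh and 6.46 and 5.80 CPM in control. Both *CDYL*-sh libraries lay above both control libraries. In edgeR the log2 ratio was 0.65 ± 0.19 (SE) at an adjusted p of 0.0158, a 1.57-fold rise with a 95% interval of 1.20 to 2.06. Its value stayed between 0.53 and 0.78 over 17 alternatives. The test was passed in 13 of the 16 that give a p of their own, the other being a change of prior count, which leaves p as it is. Without *CDYL*-sh replicate 2 it was 0.54 and did not pass (adjusted p = 0.200), nor did it with limma on FPKM, at 0.53 with a pseudocount of 1 and 0.66 with a pseudocount of 0.1. The adjusted p ran from 0.00219 to 0.200 over these alternatives.

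The other ligands among the 10 genes were rare. *AREG* (ENSG00000109321), which encodes amphiregulin, an EGFR ligand, had 18 and 21 counts in *CDYL*-sh and 12 and 19 counts in control. The groups overlapped, and its log2 fold change of 0.46 had a 95% interval of -0.62 to 1.55 (adjusted p = 0.551 from edgeR). *BTC* (ENSG00000174808), which encodes betacellulin, a ligand of EGFR and ERBB4, had 25 and 25 counts in *CDYL*-sh and 37 and 48 counts in control. Both *CDYL*-sh libraries were below both control libraries, with a log2 fold change of -0.64 whose 95% interval, -1.46 to 0.19, included 0 (adjusted p = 0.253 from edgeR). *EREG* (ENSG00000124882), which encodes epiregulin, had 3 counts in *CDYL*-sh replicate 1 and none in *CDYL*-sh replicate 2 or in either control library. A count of 0 allows up to 0.136 CPM in *CDYL*-sh replicate 2 and 0.108 and 0.113 CPM in control, for counting error only, so no fold is given. These 3 genes lie within 486 kb of chromosome 4 together with *EPGN*, which encodes the related ligand epigen and had no count in any library. *EREG* is at chr4:74365145-74388749 (plus strand), *AREG* at chr4:74445136-74455005 (plus strand) and *BTC* at chr4:74744759-74794523 (minus strand), and no other protein-coding gene is annotated between them in GENCODE release 44.

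Per length, *TGFA* was listed at 69.3 and 62.5 FPKM in *CDYL*-sh and 76.8 and 72.6 FPKM in control, second in the family to *ERBB2* and apart from it in every library. *HBEGF* was listed at 4.49 and 4.94 FPKM in *CDYL*-sh and 3.17 and 2.74 FPKM in control. In control its range lay within that of *EGFR*, whose upper value, 3.30 FPKM in control replicate 1, came with a shorter implied length. The ligand sum covers the 5 ligands among the 10 genes, without *EGF* and *NRG4*, which are given below. *TGFA* held 92.5% and 90.2% of this sum of FPKM in *CDYL*-sh and 94.5% in each control library. *HBEGF* held 5.997% and 7.13% in *CDYL*-sh and 3.90% and 3.57% in control. The ratio of *TGFA* to *HBEGF* was 15.4 and 12.7 in *CDYL*-sh and 24.2 and 26.5 in control, and the groups did not overlap. *AREG* was listed at 0.70 and 1.0 FPKM in *CDYL*-sh and 0.46 and 0.75 FPKM in control. *BTC* stood at 0.36 and 0.86 FPKM in *CDYL*-sh and 0.83 and 0.71 FPKM in control, and the order of *AREG*, *BTC* and *ERBB4* was not the same in each library. The summed ligand level was 74.9 and 69.3 FPKM in *CDYL*-sh and 81.3 and 76.8 FPKM in control, mostly that of *TGFA*.

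*ERRFI1* (ENSG00000116285) is at chr1:8004404-8026309 (minus strand). It had 1554 and 1103 counts in *CDYL*-sh and 1262 and 1002 counts in control, or 55.5 and 49.98 CPM in *CDYL*-sh and 45.3 and 37.8 CPM in control. Both *CDYL*-sh libraries lay above both control libraries. In edgeR the log2 ratio was 0.35 ± 0.12 (SE) at an adjusted p of 0.0449, a 1.27-fold rise with a 95% interval of 1.06 to 1.52. The call was near the threshold and was made in 9 of these 16 alternatives, with values from 0.22 to 0.47. It was lost without control replicate 2 (0.22, adjusted p = 0.273), without *CDYL*-sh replicate 1 (0.25, adjusted p = 0.301) and without *CDYL*-sh replicate 2 (0.42, adjusted p = 0.0665), with DESeq2 (adjusted p = 0.0613), with library size only (adjusted p = 0.0529) and with limma on FPKM, within a range of 0.00966 to 0.301 over the alternatives. On the FPKM scale *ERRFI1* was listed at 21.0 and 18.1 in *CDYL*-sh and 17.7 and 14.3 in control. It exceeded *EGFR* by 7.42 and 7.69 times in *CDYL*-sh and 5.35 and 6.38 times in control. The lowest ratio, in control replicate 1, came with an implied *EGFR* length of 6479 bases against 9165 to 9448 in the other libraries. These ratios therefore do not compare the groups at like length. Per length, the order *ERBB2*, *TGFA*, *ERBB3* and *ERRFI1* held in every library without overlap. The next genes, *HBEGF* and *EGFR*, overlapped in control and stood apart in *CDYL*-sh with *HBEGF* above. Their overlap in control rested on the 3.30 FPKM of *EGFR* in control replicate 1, listed at the shorter length. In control replicate 2 *HBEGF* was above as well, at 2.74 against 2.24 FPKM.

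**Figure D3:**
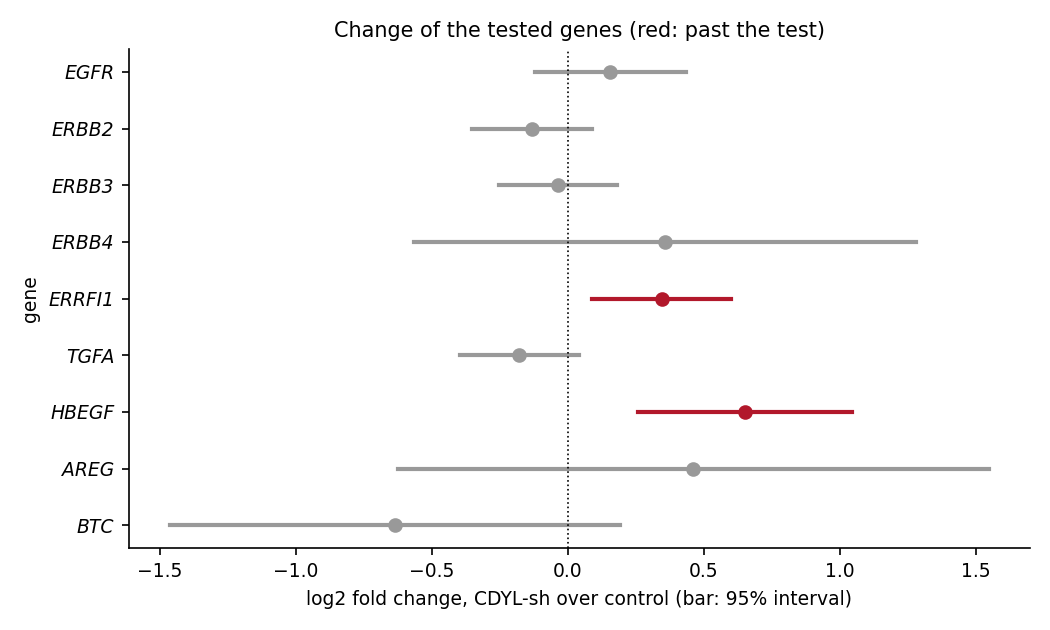
Log2 fold change (*CDYL*-sh over control, horizontal axis) of the 9 tested genes, with 95% intervals from the edgeR fit and genes past the test in red. *HBEGF* lies at 0.65 and *ERRFI1* at 0.35, and the intervals of the other 7 genes include 0, those of *ERBB4*, *AREG* and *BTC* being widest.

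The direction of change across all genes moved with base composition. *ERRFI1* has a GC content of 43.5% in its canonical transcript, and of the genes with 40 to 45% GC, 19.0% were higher and 8.12% lower in *CDYL*-sh. *HBEGF* has 50.6%, and of the genes with 50 to 55% GC, 7.05% were higher and 18.6% lower. *HBEGF* stood at 0.78 (log2 ratio, adjusted p = 0.00219) and *ERRFI1* at 0.29 (adjusted p = 0.0172) in the edgeR fit corrected for base composition and length.

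**Figure D4:**
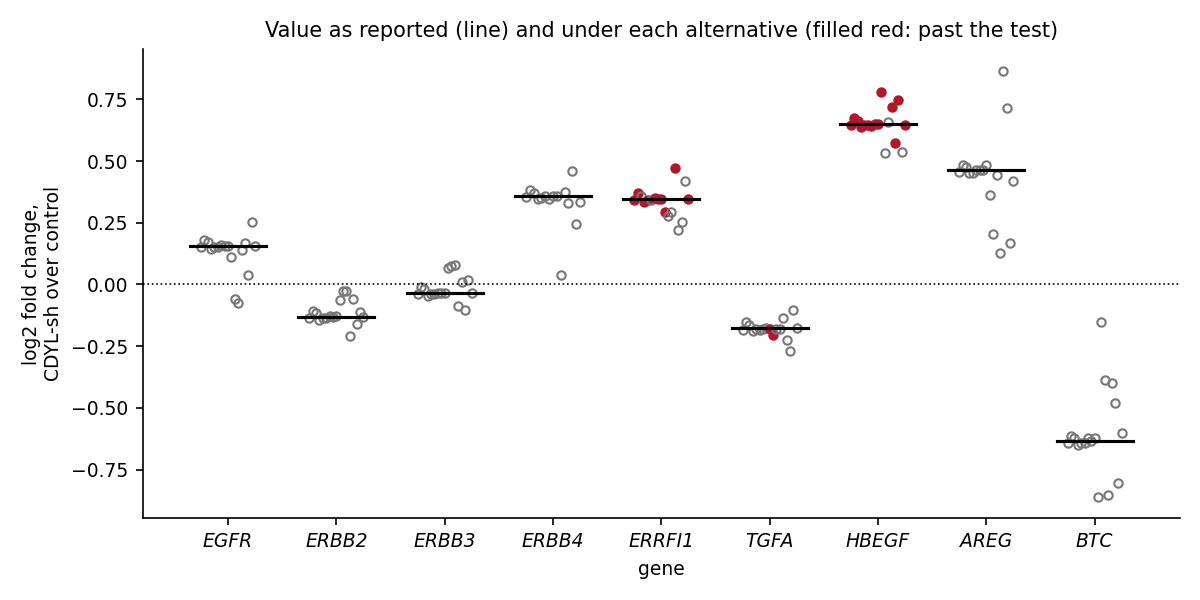
Log2 fold change (*CDYL*-sh over control) of the 9 tested genes as reported (black line) and under each alternative (circles, filled red where the test was passed). The values of *HBEGF* run from 0.53 to 0.78 and those of *ERRFI1* from 0.22 to 0.47, all above 0, whereas *EGFR* and *ERBB3* have values on both sides of 0.

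The genes whose pattern over the 4 libraries was most like that of *HBEGF* were *SLU7*, a splicing factor gene, and the RING finger genes *RNF175* and *RNF13*. Their distances from *HBEGF* were 0.01, 0.02 and 0.03, as Euclidean distance of log2 CPM centred on each gene's mean over 4 libraries. *SLU7* had 22.5 and 26.2 CPM in *CDYL*-sh and 16.4 and 14.8 CPM in control, a log2 fold change of 0.64. *SLU7* and *RNF13* passed the test, but not without *CDYL*-sh replicate 2, and *RNF175* did not pass. With 16158 genes and 4 points, such closeness is a description only. No gene of the family was lower past the test, so no like pattern was sought for a fall.

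Beyond the 10 genes, *EGF* itself was higher, and *NRG1*, *NRG2* and *NRG3* had at most 1 count in a library. Of 6 other ERBB ligand genes, 2 were tested, of which *EGF* was higher and *NRG4* did not pass. *EGF* had 158 and 120 counts in *CDYL*-sh and 73 and 87 counts in control, without overlap. Its log2 ratio was 0.91 ± 0.23 (SE) at an adjusted p of 0.00801 in edgeR, and it was 0.35 with limma on log2(FPKM + 1), where the test was missed at an adjusted p of 0.337 (alternatives ran from 0.000721 to 0.359). *NRG4* overlapped between the groups, at 1.96 and 1.63 CPM in *CDYL*-sh and 1.51 and 1.66 CPM in control. *NRG1* and *NRG2* each had 1 count in *CDYL*-sh replicate 2 and 1 in control replicate 2, and *NRG3* had none.

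Of 11 tested ligand sheddases and cofactors, 4 were higher, 1 was lower and 6 did not pass, a share of 45.5% against 25.7% of all genes. *ADAM10*, which in mouse cells releases EGF and betacellulin, had 62.6 and 66.1 CPM in *CDYL*-sh and 41.1 and 37.4 CPM in control, or 0.71 ± 0.11 (log2 ratio and SE) at an adjusted p of 0.000204 in edgeR. On the same scale *ADAM9* was higher by 0.67 ± 0.12, *TSPAN15*, a tetraspanin partner of ADAM10, by 0.43 ± 0.13, and *NRDC*, nardilysin, which enhances the shedding of HB-EGF, by 0.38 ± 0.13. The gene that was lower was *RHBDF2*, at -0.40 ± 0.14 (log2 ratio and SE) and an adjusted p of 0.0461 in edgeR. *NRDC* was at 0.18 and did not pass without control replicate 2, nor did it without *CDYL*-sh replicate 1, and *TSPAN15* was lost without control replicate 1 or either *CDYL*-sh library. *ADAM17*, which in mouse cells is the main protease for HB-EGF, TGF-alpha and amphiregulin, had 26.4 and 26.8 CPM in *CDYL*-sh and 29.4 and 24.4 CPM in control, so that the groups overlapped (log2 ratio -0.02 with a 95% interval of -0.29 to 0.26, and above 0 with upper quartile scaling or without control replicate 1). *ADAM10* and *ADAM9* have low GC contents of 37.5% and 38.7%, and GC and length offsets brought them to 0.34 and 0.46, both still past the test. The number of sheddase genes past the test was 2 without *CDYL*-sh replicate 1, 3 without control replicate 2 or *CDYL*-sh replicate 2, and 0 with limma on FPKM.

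Among the adaptor and signal relay genes, 30 in number, 10 passed, 6 as higher and 4 as lower, a share of 33.3% against 25.7% of all genes and with a median log2 fold change of 0.03. The log2 ratio was 0.54 ± 0.12 (SE) for *NRAS*, 0.63 ± 0.14 for the RAS exchange factor gene *SOS1*, 0.63 ± 0.15 for the PI3 kinase gene *PIK3CB* and -0.49 ± 0.11 for the kinase gene *AKT1*. *NRAS* and *SOS1* were still past the test after GC and length offsets, at 0.31 and 0.38. Without *CDYL*-sh replicate 2, 4 genes of this list passed and *PIK3CB* did not, and 1 did with limma on FPKM.

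For receptor inhibition, endocytosis and degradation, 11 of 27 genes passed, 6 as higher and 5 as lower, a share of 40.7% against 25.7% of all genes and with a median log2 fold change of -0.04. *CBL*, the ubiquitin ligase that sends activated EGFR to the lysosome, had 15.3 and 16.1 CPM in *CDYL*-sh and 41.0 and 33.6 CPM in control. Its log2 ratio of -1.25 ± 0.14 (SE), at an adjusted p of 6.87e-06 in edgeR, exceeded in size that of each of the 9 tested family genes. Its paralogs passed the other way, *CBLB* at 0.65 ± 0.18 and *CBLC*, with 19 and 20 counts in *CDYL*-sh and 4 and 6 counts in control, at 2.07 ± 0.62. *CBLB* was lost without either *CDYL*-sh library and *CBLC* without any 1 of the 4 libraries. The log2 ratio was 0.85 ± 0.14 (SE) for *USP8*, a deubiquitinase that acts on ERBB receptors at endosomes, -0.50 ± 0.10 for *ARHGEF7*, which encodes a binding partner of CBL, and -0.55 ± 0.13 for the epsin gene *EPN2*. The number of genes past the test in this list was 4 without *CDYL*-sh replicate 2, where *EPN2* was lost, and 0 with limma on FPKM.

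Genes that ERK signalling induces passed in 11 of 18 cases, 4 as higher and 7 as lower, a share of 61.1% against 25.7% of all genes. This list and those above were chosen with earlier results of these data known, so their shares are a description only. *SPRY4*, a Sprouty inhibitor of the RAS and ERK pathway, had 107 and 92.0 CPM in *CDYL*-sh and 205 and 195 CPM in control, or -1.01 ± 0.11 (log2 ratio and SE) at an adjusted p of 5.81e-06 in edgeR. The phosphatase gene *DUSP4* moved the other way, with 7.71 and 7.25 CPM in *CDYL*-sh and 2.33 and 2.26 CPM in control, a log2 ratio of 1.70 ± 0.22 (SE). *IER3*, an immediate early response gene, was at 1.11 ± 0.15 and *EPHA2*, an ephrin receptor gene that the study chose from these libraries for follow-up, at -0.69 ± 0.10. The median of the list was -0.06, and with limma on FPKM 4 of its genes passed. *DUSP4* was not among these, at 0.76 with limma on log2(FPKM + 1) (adjusted p = 0.0894) and 1.51 on log2(FPKM + 0.1) (adjusted p = 0.0985).

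**Figure D5:**
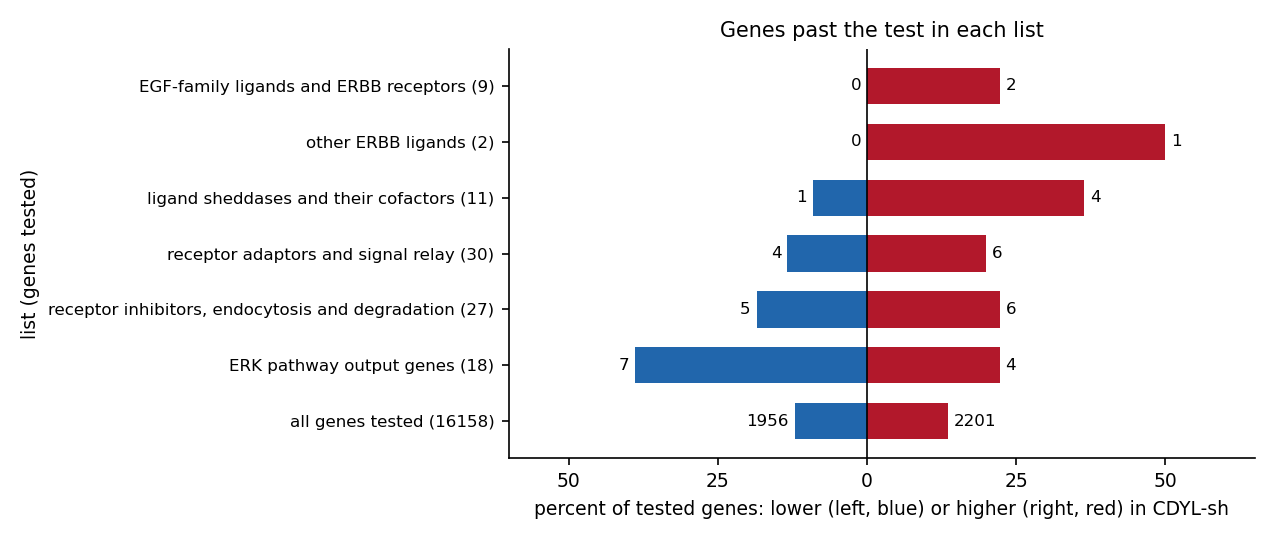
For each list, the percent of tested genes that passed, drawn to the right in red where higher in *CDYL*-sh and to the left in blue where lower, with gene numbers beside the bars and the number tested in parentheses. The 10-gene family, with 2 higher and 0 lower, has a share close to that of all genes, and the ERK output list has 4 higher and 7 lower.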

How the data were processed

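Per the study's methods, TruSeq libraries were sequenced as paired-end reads and aligned to GRCh38.p10 by TopHat in orientation mode. RSEM and edgeR are also named in the notes of the submitters. The authors deposited expected counts, which are estimated and need not be whole, and FPKM, for 58522 genes. No annotation release is given in the sources used here. Symbols were found for 98.1% of identifiers, and GENCODE release 44 (GRCh38) gave gene positions, transcript lengths and GC content. RefSeq gave the promoter windows (GRCh38.p14).

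The expected counts were rounded, filtered with filterByExpr (16158 genes kept), normalized by TMM and tested with edgeR 4.0.16 (glmQLFit, glmQLFTest), *CDYL*-sh against control, two-sided, with Benjamini-Hochberg adjustment over all tested genes, called under 0.05. Standard errors and 95% intervals are those of the log2 fold change (prior count 0.125). The filter keeps a gene with enough counts in either group. Alternatives scaled by upper quartile, by RLE or by library size alone, dropped the filter or asked for 10 counts throughout, or used DESeq2 1.42.0, limma-voom, unrounded counts, a replicate block, offsets for GC content and length (available for 98.0% of genes tested), a prior count of 2, limma 3.58.1 on log2 FPKM (pseudocounts 1 and 0.1, mean FPKM at least 0.5), and each library left out. The procedure was tested on simulated data with 150 changes of each size. It recovered 6% of changes of 1.25-fold, 53.3% of 1.5-fold, 66.7% of 2-fold and 92.7% of 4-fold, so small changes were mostly missed. The text names all 10 members, *CDYL*, up to 4 genes of each other list by adjusted p, and the 3 genes most like *HBEGF*. *ADAM17*, *RHBDF2*, *CBLB*, *CBLC*, the marker genes, *EPGN* and the neuregulin genes without a test were named after their values were seen. The members and lists were chosen with earlier results of these data known. With 2 libraries a group, no test for an outlying library applies.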

Additional observations from a re-analysis of the deposited data

How the results depend on the processing

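With 2 libraries in each group, the number of genes past the test depended on single libraries and on the unit. Of all genes, 4157 passed as reported here, in the edgeR fit described above and not in the study's own analysis. In limma fits of FPKM on the log2 scale, pseudocounts 1 and 0.1, the number was 461 or 507. It ranged from 2082 (without *CDYL*-sh replicate 2) to 4006 over the fits that left out 1 library, where a lone library is taken to vary as the pair of the other group does. Of the 9 tested members of the family, 2 passed as reported, 1 with DESeq2 or with library size only, 0 with limma on either FPKM scale, and 0 (without *CDYL*-sh replicate 2) to 2 when 1 library was left out, with 1 without control replicate 2 or *CDYL*-sh replicate 1. With GC and length offsets, 3 passed. *HBEGF* and *ERRFI1* stayed above 0 in each of 17 alternatives. *EGFR* reversed to -0.059 and -0.074 with limma on log2(FPKM + 1) and log2(FPKM + 0.1). *ERBB3* reversed to 0.068 with the offsets, to 0.075 and 0.077 with limma on FPKM, and ranged from -0.10 to 0.018 when 1 library was left out. *NRG4* reversed to -0.047 with the offsets, and *ADAM17* to 0.0074 with upper quartile scaling and ranged from -0.15 to 0.12 when 1 library was left out. The causes were not tested. *CDYL* passed in each of the 16 alternatives with a p of their own. In the replicate block, 5393 genes and 3 members passed, the third being *TGFA* as lower (log2 fold change -0.18, adjusted p = 0.0353 from edgeR). The labels do not say that equal numbers pair the libraries, and the correlation of the deviations of same-numbered libraries was 0.03. Depth limits *ERBB4*, *AREG* and *BTC*, with 12 to 48 counts per library, and *EREG*, which could not be tested.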
